A study of Mus musculus with 6 samples.

Results

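Genes for chromatin modifiers and remodelers were described in mouse gastrocnemius, a calf muscle made mostly of fast fibers, by RNA sequencing of 3 wild type (WT) libraries and 3 libraries labelled *Sirt6* KO. The set was chosen by gene symbol alone and held the *Kmt2*, *Setd*, *Ezh*, *Suv39h*, *Suv420h*, *Ehmt*, *Kdm*, *Dnmt*, *Tet*, *Kat*, *Hdac*, *Brd*, *Smarc* and *Chd* families, without *Hdac4*, *Hdac5*, *Hdac7*, *Hdac9* and *Kdm5d*. The symbols matched 92 of 24532 genes in the table, and 87 of these had at least 60 counts summed over the 6 libraries. All 87 also passed the filter on low counts.

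The study asked how loss of the deacylase Sirt6 in muscle alters gene expression. All 6 animals were male C57BL/6 mice of about 20 weeks that carried *Sirt6* flox/flox alleles. The animals labelled *Sirt6* KO also carried *Myl1*-Cre, which is active mainly in postmitotic type II fibers, so that other cells of the muscle keep the gene. Each library came from 1 animal.

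Chromatin modifiers add or remove acetyl and methyl groups on histones or methyl groups on DNA, and remodelers use ATP to move or exchange nucleosomes. Acetylation and methylation of histone H3 lysine 4 mark active genes, whereas methylation of H3 lysine 9, H3 lysine 27, H4 lysine 20 and of CpG sites in DNA is typical of silenced regions. In muscle fibers such enzymes act in nuclei that no longer divide, and Sirt6 itself removes acetyl groups from histone H3.

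*Sirt6* did not follow the labels. Its levels in CPM (read counts scaled to the TMM-normalized library size) were 2.77, 2.23 and 2.88 in WT and 7.81, 7.44 and 6.68 in the labelled KO. The transcript was thus higher in all 3 libraries of the labelled KO group (log2 fold change 1.48, standard error 0.17, edgeR quasi-likelihood test, Benjamini-Hochberg adjusted p = 0.0113). Counts per gene do not separate reads of the deleted exons from reads of the remaining ones, so a lack of protein was not checked here, and every direction below is that of the labels. The libraries held 44845763 to 63016899 counts, and 1 count was worth 0.0165 to 0.0212 CPM. The summed level of 7 fiber markers (*Acta1*, *Ckm*, *Ttn* and others) ran from 137240 to 204862 CPM in WT and from 188388 to 212038 CPM in the labelled KO. The summed level of 6 slow fiber markers was 2547, 2142 and 52.3 CPM in the WT libraries. In the labelled KO libraries it was 192, 1542 and 320 CPM. WT replicate 3 and labelled KO replicate 2 thus each stood apart from the rest of their group in these markers. Between whole libraries, WT replicate 3 had a Pearson's r of 0.977 and 0.975 with WT replicates 1 and 2. With the labelled KO libraries its r was 0.978 to 0.980. Labelled KO replicate 2 had an r of 0.987 and 0.990 with labelled KO replicates 1 and 3. For satellite cells, 3 of 4 markers (*Pax7*, *Myf5* and *Cdh15*) were higher in the labelled KO at an edgeR adjusted p under 0.05. The remaining marker, *Chrdl2*, was lower but did not pass (log2 fold change -0.76, edgeR adjusted p = 0.224). The summed level was 18.9 to 25.4 CPM in WT and 33.6 to 45.6 CPM in the labelled KO. Most of this sum was *Cdh15*, at 14.9, 14.9 and 23.0 CPM in WT and 39.4, 29.0 and 35.2 CPM in the labelled KO. The part of these shifts in the results below was not tested. In bulk muscle, fewer cells of a type and less RNA per cell cannot be told apart.

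Of the 87 chromatin genes, 15 differed between the groups at an edgeR adjusted p under 0.05 (the meaning of called wherever no other tool is named), 9 of them higher and 6 lower in the labelled *Sirt6* KO. This was 17.2% of the set, where 16.2% of the 13801 genes tested were called. The higher genes made up 10.3% of the set against 7.85% of all genes, and the lower genes 6.90% against 8.39%. The higher genes were *Suv420h2*, *Chd2*, *Hdac3*, *Hdac11*, *Kat5*, *Hdac6*, *Kdm8*, *Dnmt1* and *Setd1a*. The lower genes were *Chd7*, *Chd1*, *Kdm7a*, *Kdm1b*, *Smarca5* and *Brd7*. The median log2 fold change over the 87 genes was 0.17, against -0.02 over all genes tested, and 61 of the 87 had a positive value, against 48.4% of all genes. An unadjusted p under 0.05 was found for 35 of the 87 and for 35.3% of all genes. The changes were small, since 72 of the 87 lay within 0.5 of 0 on the log2 scale and *Kdm4a* alone exceeded 1. The groups did not overlap for 44 of the 87 (50.6%, against 40.0% of all genes), 30 of them higher in the labelled KO and 14 lower, where 20.3% and 19.6% of all genes were so.

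**Figure D1:**
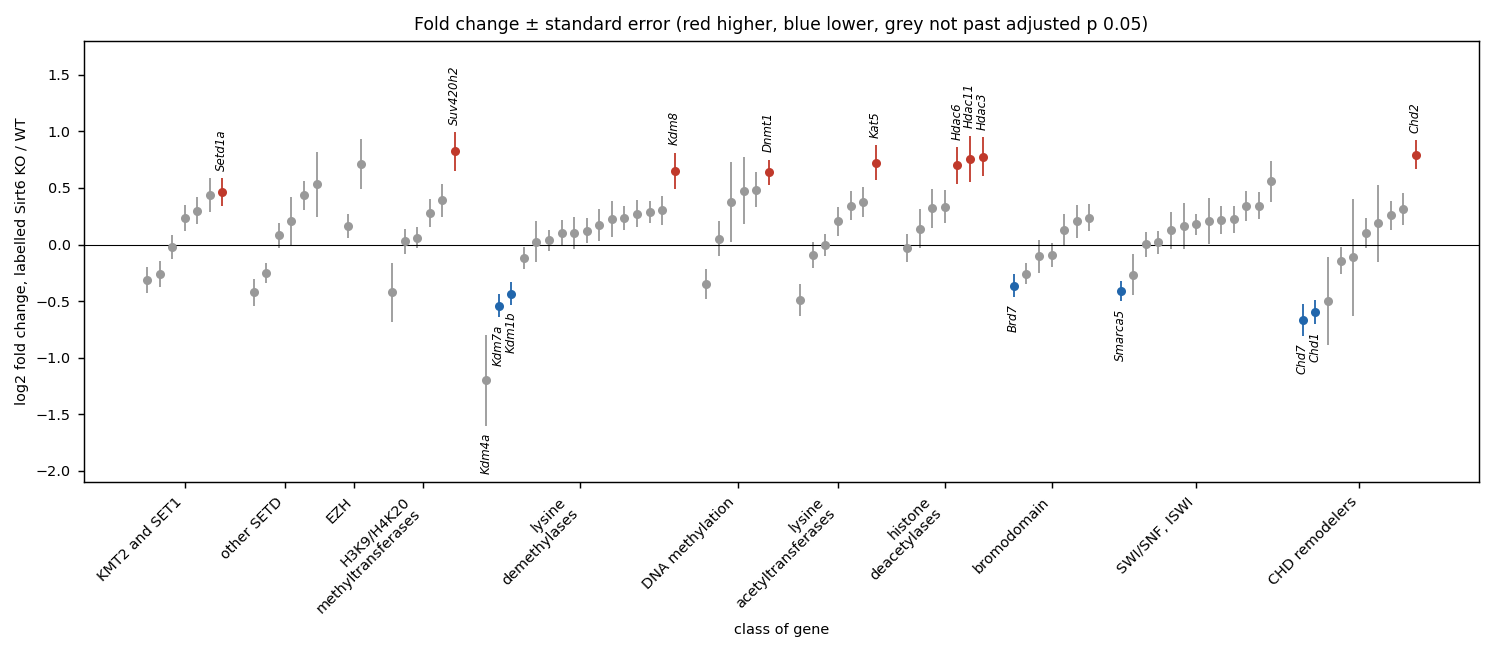
Log2 fold change of the 87 chromatin genes between labelled *Sirt6* KO and WT (3 libraries each), by class, with standard errors; coloured points passed an adjusted p of 0.05. The 9 genes called higher and the 6 called lower are spread over the classes, and only *Kdm4a*, which did not pass, lies beyond 1.

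Fewer genes were called, in the set and over all genes, after a correction for base composition. Across all genes tested with a known transcript the log2 fold change increased with transcript GC content (Spearman's rho 0.339 over 13271 genes), and it did so within the set (rho 0.356 over 87 genes; genes of the same 6 libraries are not independent). The median GC content was 54.3% in the 9 higher genes and 43.8% in the 6 lower ones. With this trend removed, 5 members were called, against 6.93% of all genes. The log2 fold change was then positive for 56 of the 87, against 48.8% of all genes. The 5 called were *Chd2*, *Hdac3* and *Dnmt1*, which stayed higher, *Chd7*, which stayed lower, and *Brd1*, which was not called before. The number of calls also moved with single libraries, in the set and over all genes. No member passed without WT replicate 2, without labelled KO replicate 1 or without labelled KO replicate 3, where 26, 27 and 23 members had an unadjusted p under 0.05 in the edgeR test and 1.93%, 0.0580% and 0.0942% of all genes were called. Without WT replicate 1 the count was 2 (3.28% of all genes), without labelled KO replicate 2 it was 4 (6.51% of all genes), and without WT replicate 3 it was 34 (33.2% of all genes). DESeq2 on all 6 libraries called 22, including all 15, and 26.9% of the 13257 genes to which it gave an adjusted p. Each of the 15 kept its direction in every one of these fits.

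**Figure D2:**
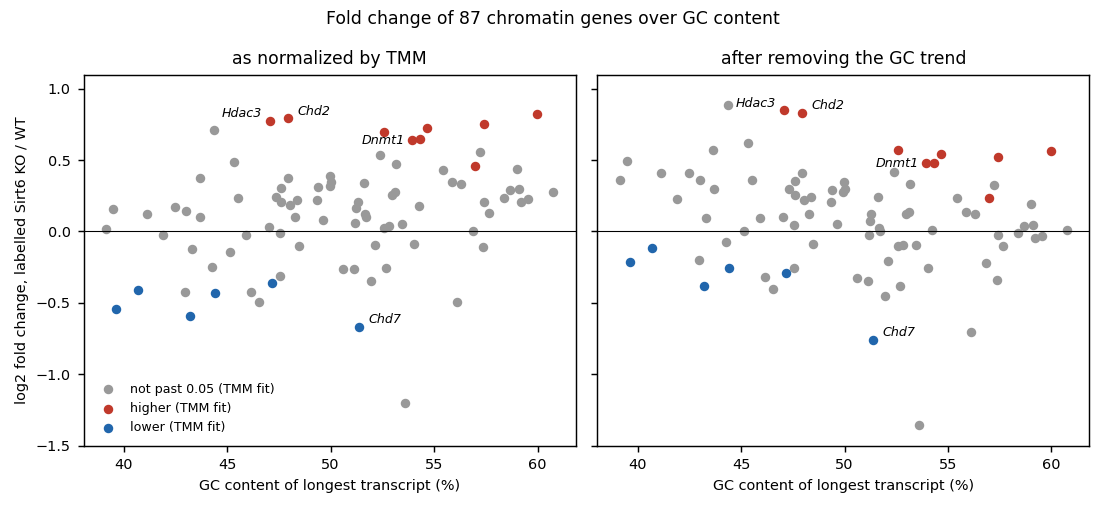
Log2 fold change of the 87 genes against the GC content of the longest transcript, as normalized (left) and after removal of the trend across all genes (right), with colours from the left panel's calls. The blue points lie at low GC content except *Chd7*, and on the right *Chd2*, *Hdac3* and *Chd7* lie slightly farther from 0 than on the left and *Dnmt1* nearer (0.48 against 0.64).

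The levels of the 87 genes spanned 3 orders of magnitude when expressed per transcript length as FPKM (fragments scaled to transcript length and library size). *Smarcd3*, a muscle and heart subunit of the SWI/SNF remodeler, had the highest mean at 69.2 FPKM, followed by *Setd7* at 59.3 FPKM, *Setd3* at 44.9 FPKM and *Hdac3* at 40.3 FPKM. Setd7 methylates H3 lysine 4 and other proteins, and Setd3 methylates actin. *Smarcd3* stood at 67.7 ± 6.02 FPKM (SD, n = 3) in WT and 70.8 ± 18.5 FPKM in the labelled KO, and *Setd7* at 58.0 ± 8.05 and 60.7 ± 14.0 FPKM, so these neighbours overlapped within their spread. *Smarcd3* supplied 91.9% to 94.4% of the summed FPKM of *Smarcd1*, *Smarcd2* and *Smarcd3* in every library. The lowest genes were *Chd5* at 0.0317 FPKM, *Tet1* at 0.0338 FPKM and *Dnmt3b* at 0.193 FPKM, and the median of the set was 4.14 FPKM.

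**Figure D3:**
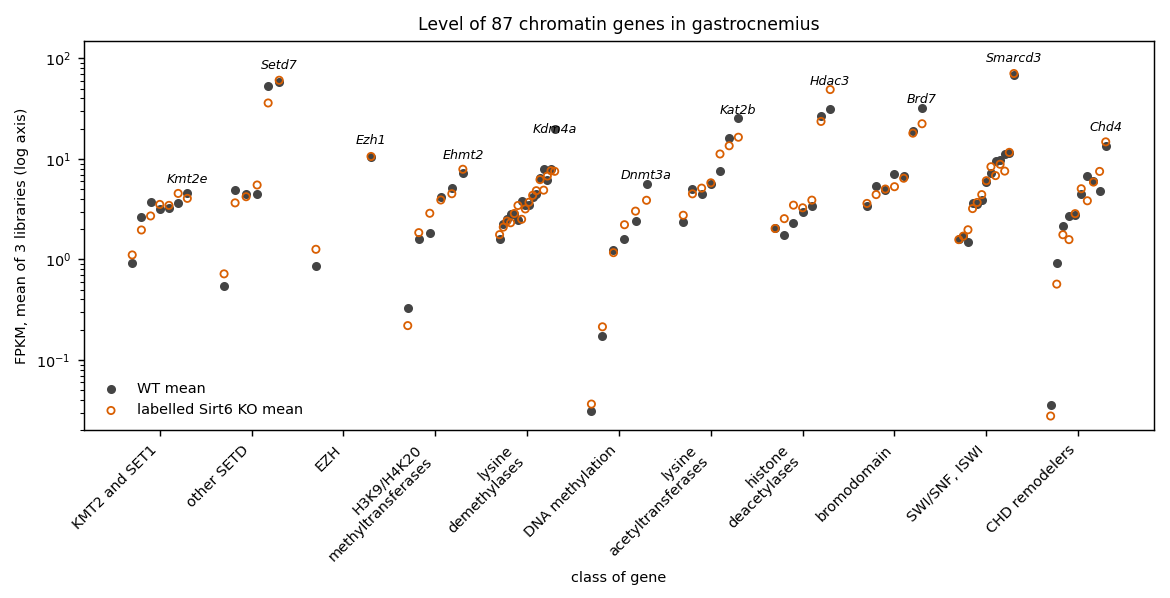
Mean FPKM of each of the 87 genes on a log axis in WT (filled) and labelled *Sirt6* KO (open), 3 libraries each, by class and with the highest gene of each class named. *Smarcd3*, *Setd7*, *Setd3* and *Hdac3* lie at the top, and *Chd5*, *Tet1* and *Dnmt3b* at the bottom.

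Histone deacetylases remove acetyl groups and act mostly as corepressors. 3 of the 7 measured were called higher in the labelled KO, against 7.85% of all genes, and none lower, against 8.39%. The median log2 fold change of the 7 was 0.34. With the GC trend removed, 1 of the 7 was called, against 6.93% of all genes. *Hdac3*, the catalytic subunit of the NCoR corepressor, measured 61.4, 64.4 and 81.9 CPM in WT and 143, 100 and 113 CPM in the labelled KO (log2 fold change 0.78, standard error 0.17, edgeR adjusted p = 0.029). All 3 labelled KO libraries lay above the highest WT library, and replicate 1 of the labelled KO was the highest. *Hdac11* measured 6.36, 5.32 and 6.84 CPM in WT and 13.3, 9.73 and 8.30 CPM in the labelled KO (log2 fold change 0.76, standard error 0.21, edgeR adjusted p = 0.0465). *Hdac6*, a mainly cytoplasmic enzyme that deacetylates tubulin, measured 6.70, 8.02 and 8.67 CPM in WT and 14.4, 10.7 and 12.9 CPM in the labelled KO (log2 fold change 0.70, standard error 0.16, edgeR adjusted p = 0.0323). The groups did not overlap for either gene, and both kept their direction but did not pass with the GC trend removed, at a log2 fold change of 0.52 for *Hdac11* (edgeR adjusted p = 0.142) and 0.57 for *Hdac6* (edgeR adjusted p = 0.0755). Within class I (*Hdac1*, *Hdac2*, *Hdac3* and *Hdac8*), *Hdac3* held 49.9% ± 1.82 (SD, n = 3) of the summed FPKM in WT and 62.6% ± 2.74 in the labelled KO, and *Hdac2* 42.2% ± 0.386 and 30.5% ± 1.99. *Hdac2* itself had a log2 fold change of -0.03 and an edgeR adjusted p of 0.892, and its sign turned with the GC trend removed.

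Lysine acetyltransferases add the acetyl groups. Of 7 measured, *Kat5* (Tip60, which acetylates histones H4 and H2A) was called higher by edgeR and none lower, and DESeq2 also called *Kat2b* lower. Over all genes, edgeR called 7.85% higher and 8.39% lower, and DESeq2 called 26.9% of the genes it tested. *Kat5* measured 13.5, 14.7 and 19.6 CPM in WT and 26.4, 27.2 and 25.2 CPM in the labelled KO (log2 fold change 0.72, standard error 0.15, edgeR adjusted p = 0.0251; log2 fold change 0.54 and adjusted p = 0.070 with the GC trend removed). The labelled KO libraries lay close together and above all WT libraries. *Kat2b* (PCAF), the highest gene of the class per length, measured 120, 119 and 151 CPM in WT and 104, 85.7 and 87.4 CPM in the labelled KO. The groups did not overlap, but the difference did not pass the edgeR test (log2 fold change -0.49, edgeR adjusted p = 0.0528) and passed that of DESeq2 (adjusted p = 0.0120).

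The 7 bromodomain genes encode proteins that bind acetylated histones, and 1 was called lower, where 8.39% of all genes were. *Brd7*, a subunit of the PBAF form of SWI/SNF, measured 82.1, 76.8 and 88.7 CPM in WT and 65.8, 64.1 and 62.6 CPM in the labelled KO (log2 fold change -0.36, standard error 0.10, edgeR adjusted p = 0.0484; log2 fold change -0.29 and adjusted p = 0.107 with the GC trend removed). The groups did not overlap.

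The KMT2 and SET1 class, defined by gene symbol, includes methyltransferases of H3 lysine 4. Of its 7 genes, 1 was called higher, against 7.85% of all genes, and none lower, against 8.39%. *Setd1a*, a catalytic subunit of a COMPASS complex, measured 23.8, 21.6 and 25.6 CPM in WT and 29.8, 31.1 and 36.9 CPM in the labelled KO (log2 fold change 0.46, standard error 0.12, edgeR adjusted p = 0.0459; log2 fold change 0.23 and adjusted p = 0.252 with the GC trend removed). Its groups were apart, by a narrow margin. *Kmt2e*, the highest of the class per length, had a log2 fold change of -0.02 (edgeR adjusted p = 0.892), and its sign turned with the GC or length trend removed. None of the 6 other *Setd* genes was called by edgeR, although 3 had an unadjusted p under 0.05 and DESeq2 called 2. Such a p was found for 35.3% of all genes, and DESeq2 called 26.9% of the genes it tested. The smallest p among them was that of *Setd3*, which measured 144, 153 and 180 CPM in WT and 119, 121 and 116 CPM in the labelled KO (log2 fold change -0.42, edgeR adjusted p = 0.0512, DESeq2 adjusted p = 0.00708).

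Among 6 methyltransferases of H3 lysine 9 and H4 lysine 20, 1 was called higher, against 7.85% of all genes, and none lower, against 8.39%. *Suv420h2* (gene ID 232811, GRCm38 chromosome 7, 4740092 to 4747514), which adds methyl groups to H4 lysine 20 in heterochromatin, measured 5.25, 4.22 and 3.73 CPM in WT and 7.93, 8.15 and 7.28 CPM in the labelled KO (log2 fold change 0.82, standard error 0.17, edgeR adjusted p = 0.0243; log2 fold change 0.56 and adjusted p = 0.0802 with the GC trend removed). This was the largest log2 fold change among the called members, and all 3 labelled KO libraries lay above the WT range. *Ehmt2* (G9a), the highest of the class per length, had a log2 fold change of 0.28 (edgeR adjusted p = 0.150). For the H3 lysine 27 methyltransferases of polycomb complex PRC2, edgeR called neither *Ezh1* nor *Ezh2*, 1 of the pair had an unadjusted p under 0.05 and DESeq2 called 1 (*Ezh2*). Such a p was found for 35.3% of all genes, and DESeq2 called 26.9% of the genes it tested. *Ezh1*, the form that prevails in nondividing cells, stood at 10.5 ± 0.161 FPKM (SD, n = 3) in WT and 10.6 ± 0.513 FPKM in the labelled KO. *Ezh2* stood at 0.860 ± 0.140 and 1.26 ± 0.272 FPKM (log2 fold change 0.71 on the count scale, standard error 0.22, edgeR adjusted p = 0.0682, DESeq2 adjusted p = 0.0275).

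Of 16 lysine demethylases, edgeR called 1 higher and 2 lower, where 7.85% and 8.39% of all genes were so called. *Kdm8*, a JmjC protein, measured 7.08, 5.56 and 6.86 CPM in WT and 8.70, 10.7 and 11.1 CPM in the labelled KO (log2 fold change 0.65, standard error 0.16, edgeR adjusted p = 0.0382; log2 fold change 0.48 and adjusted p = 0.101 with the GC trend removed). *Kdm7a*, which removes methyl groups from H3 lysine 9 and lysine 27, measured 80.6, 78.0 and 87.8 CPM in WT and 59.4, 53.9 and 56.1 CPM in the labelled KO (log2 fold change -0.54, standard error 0.10, edgeR adjusted p = 0.0189; log2 fold change -0.21 and adjusted p = 0.195 with the GC trend removed). Neither gene's groups overlapped. *Kdm1b*, an H3 lysine 4 demethylase, measured 20.2, 19.8 and 21.3 CPM in WT and 14.9, 15.6 and 14.9 CPM in the labelled KO (log2 fold change -0.43, standard error 0.10, edgeR adjusted p = 0.0298; log2 fold change -0.26 and adjusted p = 0.134 with the GC trend removed). Its groups were well apart, and it overlaps the neighbouring *Dek* by 513 bases. *Dek* was also lower (log2 fold change -0.54, edgeR adjusted p = 0.0217; log2 fold change -0.20 and adjusted p = 0.237 with the GC trend removed). *Kdm4a*, an H3 lysine 9 and lysine 36 demethylase with the largest log2 fold change of the set in size, measured 88.4, 153 and 43.8 CPM in WT and 34.7, 44.8 and 44.6 CPM in the labelled KO. WT replicate 3 lay among the labelled KO libraries, and the difference did not pass the edgeR test (log2 fold change -1.20, standard error 0.40, edgeR adjusted p = 0.0798). It passed in DESeq2 (adjusted p = 0.00991) and in edgeR without WT replicate 3 (log2 fold change -1.55, adjusted p = 0.00799).

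DNA methylation genes comprised 3 methyltransferases and 3 *Tet* genes, whose products oxidize methylcytosine. Of the 6, edgeR called 1, and DESeq2 also called *Tet2* higher (log2 fold change 0.48, edgeR adjusted p = 0.0706, DESeq2 adjusted p = 0.0335). By comparison, edgeR called 16.2% of all genes and DESeq2 26.9% of the genes it tested. *Dnmt1* (gene ID 13433, GRCm38 chromosome 9, 20907206 to 20959888), the maintenance methyltransferase, measured 9.26, 9.40 and 9.13 CPM in WT and 14.5, 13.6 and 15.3 CPM in the labelled KO (log2 fold change 0.64, standard error 0.11, edgeR adjusted p = 0.0164; log2 fold change 0.48 and adjusted p = 0.0475 with the GC trend removed). The WT libraries were nearly equal and all labelled KO libraries lay above them. *Dnmt3a*, a de novo enzyme and the highest of the class per length, had a log2 fold change of -0.35 (edgeR adjusted p = 0.113). *Dnmt1* made up 21.9% ± 1.64 (SD, n = 3) of the summed FPKM of *Dnmt1*, *Dnmt3a* and *Dnmt3b* in WT and 35.2% ± 1.86 in the labelled KO. The summed level of 4 markers of dividing cells was 1.54 to 1.93 CPM in WT and 0.363 to 1.59 CPM in the labelled KO, and neither of the 2 that could be tested was called.

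The 13 SWI/SNF and ISWI genes held 1 lower and no higher call by edgeR, where 8.39% and 7.85% of all genes were so called. DESeq2, which called 26.9% of the genes it tested, also called *Smarcd1*, a SWI/SNF subunit, higher (log2 fold change 0.56, edgeR adjusted p = 0.0752, DESeq2 adjusted p = 0.0311). *Smarca5* (gene ID 93762, GRCm38 chromosome 8, 80699943 to 80739459), the ATPase of ISWI remodelers, which space nucleosomes, measured 57.4, 54.4 and 57.7 CPM in WT and 41.2, 43.1 and 43.1 CPM in the labelled KO (log2 fold change -0.41, standard error 0.09, edgeR adjusted p = 0.0271; log2 fold change -0.11 and adjusted p = 0.430 with the GC trend removed). The spread within each group was small against the gap. *Smarcd3* had a log2 fold change of 0.21 (edgeR adjusted p = 0.501), and its sign turned with the GC trend removed. *Smarca2*, an ATPase of SWI/SNF, measured 61.3, 63.0 and 42.9 CPM in WT and 41.9, 54.1 and 43.0 CPM in the labelled KO. Its highest libraries, WT replicates 1 and 2 and labelled KO replicate 2, were also those with the highest slow fiber markers (log2 fold change -0.27, edgeR adjusted p = 0.319).

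The CHD remodelers, ATPases with chromodomains, gave 1 higher and 2 lower calls among 10 genes, where 7.85% and 8.39% of all genes were so called. *Chd2* had the smallest p of the 87 genes and measured 43.5, 44.1 and 54.9 CPM in WT and 90.2, 77.7 and 79.2 CPM in the labelled KO (log2 fold change 0.79, standard error 0.13, edgeR adjusted p = 0.0153; log2 fold change 0.83 and adjusted p = 0.0285 with the GC trend removed). *Chd1*, its closest relative, which binds methylated H3 lysine 4, measured 23.8, 24.2 and 20.5 CPM in WT and 15.1, 14.8 and 15.3 CPM in the labelled KO (log2 fold change -0.59, standard error 0.11, edgeR adjusted p = 0.0183; log2 fold change -0.38 and adjusted p = 0.0748 with the GC trend removed). *Chd2* and *Chd1* thus moved in opposite directions, each without overlap of the groups. *Chd2* made up 64.3% ± 4.97 (SD, n = 3) of their summed FPKM in WT and 82.6% ± 1.12 in the labelled KO. *Chd7* (gene ID 320790, chromosome 4, 8690402 to 8868449), which acts at enhancers, measured 69.1, 84.9 and 96.4 CPM in WT and 50.2, 50.7 and 56.6 CPM in the labelled KO (log2 fold change -0.67, standard error 0.14, edgeR adjusted p = 0.0246; log2 fold change -0.76 and adjusted p = 0.0344 with the GC trend removed). Every WT library lay above every labelled KO library. *Chd4*, the ATPase of the NuRD complex and the highest of the class per length, had a log2 fold change of 0.26 (edgeR adjusted p = 0.189).

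*Chd2* (gene ID 244059) lies on chromosome 7 (GRCm38, 73426652 to 73541746), and a long noncoding RNA gene overlaps it by 1949 bases in the annotation. This RNA, *Chaserr* (gene ID 69170, listed under the older symbol 1810026B05Rik, chromosome 7, 73539798 to 73558395), is known to limit the expression of *Chd2* in cis. It was looked at after the value of *Chd2* was seen. *Chaserr* measured 11.2, 10.9 and 8.76 CPM in WT and 4.05, 5.06 and 4.47 CPM in the labelled KO (log2 fold change -1.19, standard error 0.16, edgeR adjusted p = 0.0132; log2 fold change -1.19 and adjusted p = 0.0214 with the GC trend removed). The noncoding RNA was thus lower in every labelled KO library, while *Chd2* was higher. With 1 library left out, it passed in 4 of 6 fits, and the largest edgeR adjusted p was 0.0695. Reads of the shared stretch could count for either gene, and whether the counting used strand is not stated. Of the 15 called members, 7 overlap another gene in the annotation, 2 of them a protein-coding one.

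**Figure D4:**
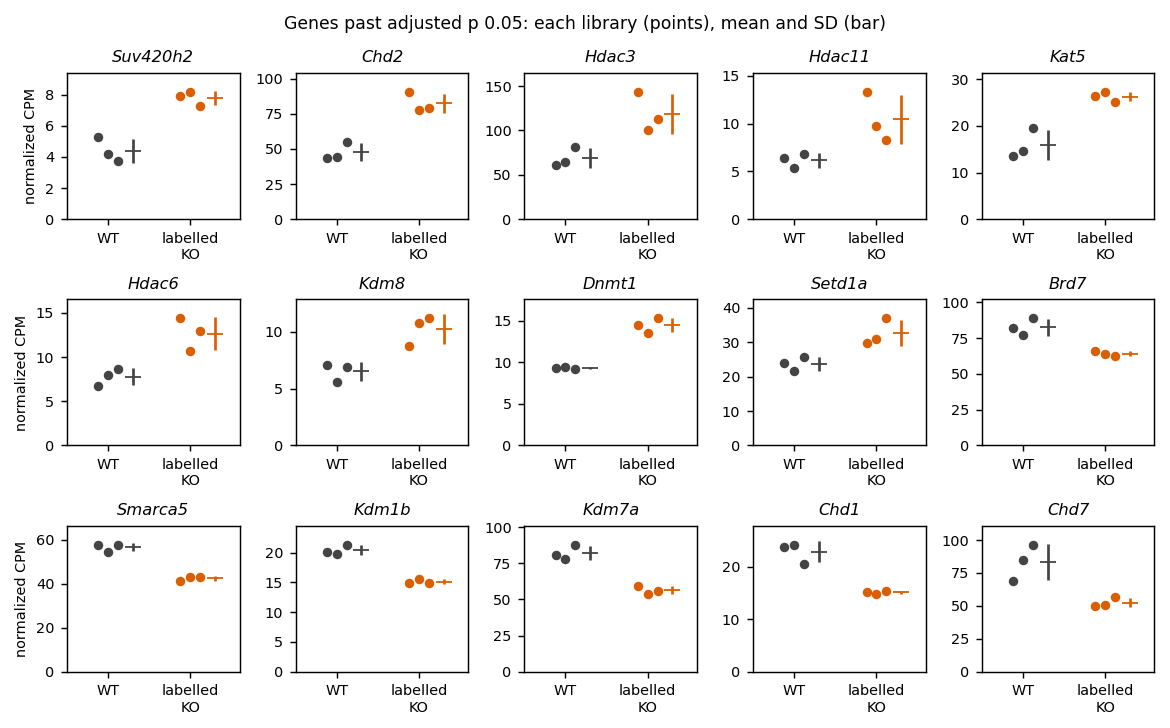
Normalized CPM of the 15 called genes in each library (points), with mean and SD (bars), in WT and labelled *Sirt6* KO (3 libraries each). No group overlaps the other in any panel, and *Chd2* and *Chd1* differ in opposite directions.

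Related genes can stand in for each other, so the balance within 10 pairs was taken as the log2 ratio of FPKM within a library and compared by a two-sided exact permutation test, whose smallest p with 3 against 3 libraries is 0.1. The groups did not overlap for 4 pairs, each with p = 0.1 by the exact test and 0.25 after adjustment over the 10 pairs. The *Dnmt3a* to *Dnmt1* log2 ratio was 1.79 ± 0.144 (SD, n = 3) in WT and 0.80 ± 0.143 in the labelled KO. The *Suv420h1* to *Suv420h2* log2 ratio was 1.52 ± 0.289 and 0.65 ± 0.229. In both pairs the gene that gained share was the one called higher. With the GC trend removed, *Dnmt1* was still called (edgeR adjusted p = 0.0475) and *Suv420h2* was not (edgeR adjusted p = 0.0802). The *Kat2a* to *Kat2b* log2 ratio was -2.20 ± 0.144 in WT and -1.51 ± 0.086 in the labelled KO, and the *Smarca2* to *Smarca4* log2 ratio was 0.36 ± 0.338 in WT and -0.30 ± 0.251 in the labelled KO. The *Smarca2*/*Smarca4* groups were separated narrowly, since WT replicate 3 stood at -0.016 and labelled KO replicate 2 at -0.044. For *Ezh1* and *Ezh2*, *Ezh1* was 12.3-fold higher in FPKM in WT and 8.52-fold in the labelled KO, with overlapping groups (p = 0.2 by the exact permutation test, 0.286 adjusted). The groups also overlapped for *Hdac1*/*Hdac2*, *Kdm6a*/*Kdm6b*, *Ehmt1*/*Ehmt2*, *Chd3*/*Chd4* and *Smarcc1*/*Smarcc2*.

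**Figure D5:**
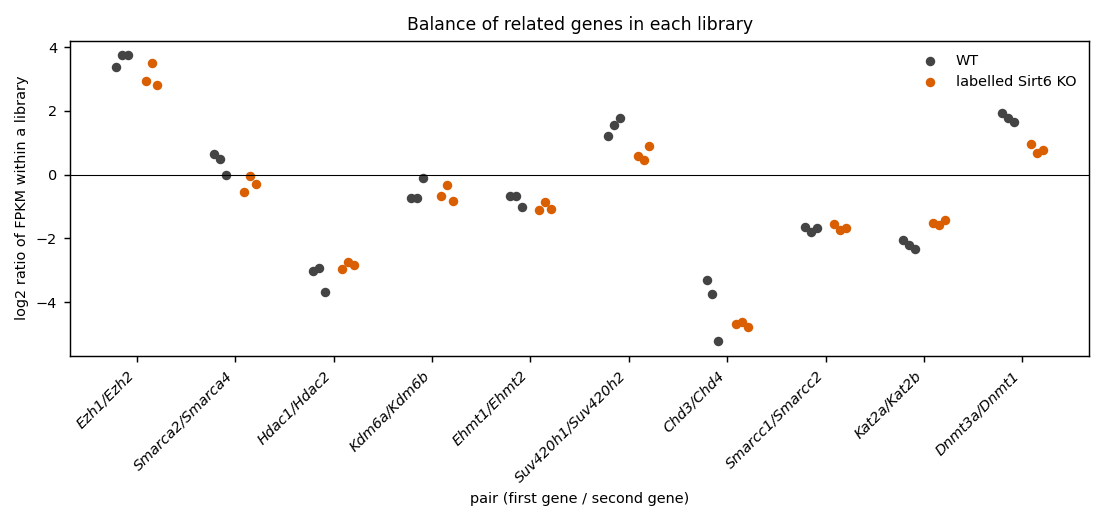
Log2 ratio of FPKM of 10 pairs of related genes in each library, WT and labelled *Sirt6* KO (3 libraries each). The groups lie apart for *Dnmt3a*/*Dnmt1*, *Suv420h1*/*Suv420h2*, *Kat2a*/*Kat2b* and *Smarca2*/*Smarca4*, and overlap for the other pairs.

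Partners of these enzymes were taken as a list of 103 genes, of which 102 were tested, and 23 were called, 12 higher and 11 lower. This was 22.5% of the list against 16.2% of all genes, and 12 partners were called with the GC trend removed, where 6.93% of all genes were. By list, 1 of 21 polycomb and 1 of 8 COMPASS genes were called, against 16.2% of all genes. So were 4 of 13 SWI/SNF partners, 6 of 18 other methyltransferases and 4 of 13 other remodelers. Among corepressor subunits, 3 of 12 were higher, against 7.85% of all genes, and none lower. *Sin3a*, the scaffold of the Sin3 complex that carries Hdac1 and Hdac2, measured 12.05, 10.2 and 12.2 CPM in WT and 22.1, 24.0 and 23.6 CPM in the labelled KO (log2 fold change 1.01, standard error 0.12, edgeR adjusted p = 0.0110; log2 fold change 1.04 and adjusted p = 0.0118 with the GC trend removed). Its paralog *Sin3b* was also higher (log2 fold change 0.54, edgeR adjusted p = 0.0167). With the GC trend removed, *Sin3b* did not pass (log2 fold change 0.33, edgeR adjusted p = 0.0739). Every labelled KO library exceeded every WT library for *Sin3a*. The arginine methyltransferase *Prmt1* measured 42.3, 45.9 and 53.6 CPM in WT and 110, 84.4 and 93.3 CPM in the labelled KO (log2 fold change 1.02, standard error 0.14, edgeR adjusted p = 0.0132). *Prmt2*, of the same family, measured 2.71, 2.48 and 2.90 CPM in WT and 10.05, 6.70 and 7.46 CPM in the labelled KO (log2 fold change 1.58, standard error 0.20, edgeR adjusted p = 0.0128). Both were higher in all 3 labelled KO libraries.

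Of 8 readers of methylated DNA and HP1 proteins, 4 were lower, against 8.39% of all genes, and none higher, with a median log2 fold change of -0.34. *Cbx3* (HP1 gamma), which binds methylated H3 lysine 9, measured 30.8, 27.2 and 32.8 CPM in WT and 18.2, 19.3 and 17.5 CPM in the labelled KO (log2 fold change -0.72, standard error 0.11, edgeR adjusted p = 0.0138). With the GC trend removed, where 6.93% of all genes were called, none of the 4 passed, and *Cbx3* had a log2 fold change of -0.37 (edgeR adjusted p = 0.0744). The acetyltransferases *Ep300* and *Crebbp*, which CREB recruits, had log2 fold changes of -0.27 and 0.26 (edgeR adjusted p = 0.120 and 0.154). Neither passed, 1 of the pair had an unadjusted p under 0.05 and DESeq2 called none. None of 7 NuRD subunits was called by edgeR either, with 4 at an unadjusted p under 0.05 and 2 called by DESeq2. For both groups of partners the shares to compare are 35.3% of all genes at an unadjusted p under 0.05 and 26.9% called by DESeq2.

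Promoter letters are shown to let the base composition and the CREB element be seen in genes that were higher, lower and not called. CREB is a transcription factor that binds the cyclic AMP response element TGACGTCA, which is its own reverse complement, or its shorter form TGACG. On the other strand the shorter form reads CGTCA, and the full element contains both. *Creb1*, which encodes CREB and is no member of the set, measured 34.0, 28.8 and 25.3 CPM in WT and 16.7, 12.9 and 15.6 CPM in the labelled KO, lower in all 3 libraries (log2 fold change -0.96, standard error 0.15, edgeR adjusted p = 0.0144; log2 fold change -0.64 and adjusted p = 0.0513 with the GC trend removed). RefSeq windows (GRCm38.p6) of 250 bases before the start were found for 68 of the 87 genes, 93 windows in all. The full element stood in 1 window (1.08%, against 1.55% of 32851 windows of 27025 RefSeq genes), and the shorter form in 23 (24.7% against 17.8%). These RefSeq genes were not filtered on expression, whereas the 87 genes were, so the 2 sets are unlike. The median number of CpG pairs was 21 in the 93 windows against 6 over the 32851 unfiltered ones. The median GC content was 66% against 52.4%. Whether expressed genes at large differ likewise from the unfiltered ones was not tested. Among called genes, 4 of 10 windows of higher genes and 1 of 4 windows of lower genes held the shorter form. Some genes have more than 1 window, and such windows can share bases. Counted by gene, the shorter form stood in 18 of the 68 genes (26.5%, against 19.8% of the 27025 RefSeq genes). It stood in 3 of 7 higher genes and 1 of 4 lower genes. The 4 windows below run 5′ to 3′ on the strand of the gene, with the element in capitals. *Smarca5* (lower; chr8:80739460-80739709, minus strand) holds CGTCA 232 bases before the start, *Suv39h2* (not called; chr2:3474987-3475236, minus strand) is the window with the full element, 85 bases before the start, and *Kdm7a* (lower; chr6:39206774-39207023, minus strand) and *Kdm8* (higher; chr7:125444370-125444619, plus strand) hold none and are shown for their 56 and 7 CpG pairs.
Smarca5: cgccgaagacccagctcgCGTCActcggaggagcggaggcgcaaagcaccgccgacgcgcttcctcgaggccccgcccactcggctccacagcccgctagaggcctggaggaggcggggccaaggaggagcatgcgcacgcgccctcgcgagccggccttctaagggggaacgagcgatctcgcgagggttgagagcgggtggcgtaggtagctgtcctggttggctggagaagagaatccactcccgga
Suv39h2: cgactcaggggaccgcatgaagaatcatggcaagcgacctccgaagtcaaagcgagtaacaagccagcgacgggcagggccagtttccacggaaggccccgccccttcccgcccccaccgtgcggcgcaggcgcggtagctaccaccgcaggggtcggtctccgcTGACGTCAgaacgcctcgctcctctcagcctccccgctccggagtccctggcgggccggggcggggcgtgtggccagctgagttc
Kdm7a: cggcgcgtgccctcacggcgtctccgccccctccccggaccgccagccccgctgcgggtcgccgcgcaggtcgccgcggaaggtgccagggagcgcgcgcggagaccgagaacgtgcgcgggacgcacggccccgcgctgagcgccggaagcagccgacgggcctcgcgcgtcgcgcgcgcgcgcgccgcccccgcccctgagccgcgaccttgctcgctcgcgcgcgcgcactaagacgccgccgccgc
Kdm8: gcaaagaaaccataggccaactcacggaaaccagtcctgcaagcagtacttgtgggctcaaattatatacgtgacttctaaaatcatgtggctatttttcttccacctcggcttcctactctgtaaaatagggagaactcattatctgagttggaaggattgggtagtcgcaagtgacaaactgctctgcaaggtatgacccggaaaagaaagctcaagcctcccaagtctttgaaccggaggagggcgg
The letters of these windows are a description and do not show binding.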

How the data were processed

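Gastrocnemius RNA of 6 mice, 3 per group, was sequenced with 1 library per animal. The authors deposited raw read counts per gene with FPKM and TPM values from StringTie. Per the labels' processing notes, reads were handled with HISAT2 2.1.0, Bowtie2 2.3.4.1 and StringTie 2.1.3b, whereas a reporting form names STAR. The methods and the labels name different TruSeq kits (unstranded and stranded), and strand in the counting is not given in the sources used here. The study's documents also name different *Sirt6* flox lines. TPM values served only for an alternative form of the pair ratios.

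Counts were tested with edgeR 4.0.16 (R 4.3.3; filterByExpr, TMM, quasi-likelihood test) over 13801 genes with Benjamini-Hochberg adjustment and a threshold of 0.05. CPM are TMM-normalized. Alternatives were DESeq2 1.42.0, limma 3.58.1 on log2(FPKM + 1) and log2(FPKM + 0.1), other filters on low values, removal of GC or length trends (lowess, span 0.3), the replicate number as a block, and leaving out each library. The code was tested on simulated data. Levels between genes and pair ratios used FPKM. Counts cover 44845763 to 63016899 reads per library, and precision is limited mostly by the spread between 3 animals (biological coefficient of variation 24.1%).

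Genes named were *Sirt6*, the member of each class with the smallest p and that with the highest FPKM, up to 8 called members in each direction with the largest change, the paired genes, the 5 partners with the smallest p, *Ep300* and *Crebbp*. Other genes were chosen after their values were seen (*Chaserr*, *Creb1*, *Dek*, *Smarcd1*, *Tet2*, *Brd1*, *Chd5*, *Tet1*, *Dnmt3b*). The members and lists were chosen with earlier results of these data known.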

Additional observations from a re-analysis of the deposited data

How the results depend on the processing

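All 15 called members kept their direction under every alternative, but counts of calls moved. With the GC trend removed, 3 members were higher and 2 lower, and 4 partners were lower. With the length trend removed, 11 members were higher and 3 lower (78.6% of calls higher, against 60% before). Leaving out 1 library gave 0 to 22 higher and 0 to 12 lower members, 0 to 22 higher and 0 to 13 lower partners. The other filters, DESeq2 and limma gave 12 to 22 called members. The replicate number did not pair the samples: same-numbered deviations correlated at -0.106, 0.260 and 0.161, and WT replicate 1 correlated best with labelled KO replicate 2. With the replicate block 6 members were higher and 3 lower, all 9 among the 15. With the GC trend removed and the replicate block, 1 member was higher and 1 lower, 5 partners higher and 1 lower.

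Signs turned for genes and pairs that had not passed the test. *Kmt2e* became 0.098 with the length trend removed, 0.093 with the GC trend removed and 0.090 with the block added, and 0.021 and 0.044 without WT replicate 1 and labelled KO replicate 1 (range with 1 library left out -0.064 to 0.044). *Smarcd3* became -0.047, -0.057 with the block added, and -0.0061 without labelled KO replicate 1 (range -0.0061 to 0.37). *Hdac2* became 0.023 and 0.024 with limma, 0.23 with the GC trend removed (0.23 with the block added), and 0.069 and 0.048 without WT replicate 3 and labelled KO replicate 2 (range -0.087 to 0.069). With the GC trend removed, *Kdm6b* became -0.029 (-0.013 with the block), *Ehmt1* -0.023 (-0.024) and *Kat2a* -0.027 (-0.033). *Suv420h1* became -0.029 and -0.035 with limma and -0.053 without labelled KO replicate 3 (range -0.053 to 0.10). With 1 library left out, the *Kdm6a*/*Kdm6b* difference ran from -0.22 to 0.13 and the *Smarcc1*/*Smarcc2* difference from -0.0099 to 0.079. The cause of these changes was not tested.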

Other observations

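The spread among libraries was wider in WT than in the labelled *Sirt6* KO for 50 of the 87 chromatin genes, with a median coefficient of variation of 10.5% and 8.33%. The share over all genes was not taken, so this count is no trait of the set. Between whole libraries, Pearson's r was 0.975 to 0.992 within WT and 0.987 to 0.992 within the labelled KO. *Kdm4a* varied by 57.9% in WT, where WT replicate 3 was the lowest of the 3. Among remodelers, *Chd3* varied by 51.4% and *Chd5* by 49.0% in WT (both chosen after their values were seen). *Chd5* had only 9 to 25 counts per library, at 0.46, 0.47 and 0.16 CPM in WT, so counting noise adds to its spread. The same library, WT replicate 3, had the lowest slow fiber markers, and its part in this spread was not tested.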
